A study of Mus musculus with 15 samples.

Results

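Cholesterol synthesis was followed in the dorsal hippocampal formation (dHF) through 7 genes, 5 coding for enzymes of the pathway (Hmgcs1, Sqle, Fdft1, Cyp51 and Dhcr7) and 2 for its regulators (Srebf2 and Insig1). They were chosen by name, and all 7 were among the 32285 genes of the deposited count matrices. None of the 7 takes up cholesterol, so uptake was read from a group of genes on a longer list of 52 sterol genes that also holds the 7. Nuclei came from frozen dHF micropunches of 15 female wild-type C57BL/6J mice, and each library was 1 mouse. The 6 NP mice were virgins age-matched to the dams, the 4 control RE mice had gone through mating, pregnancy, birth and rearing to weaning, and the 5 stress RE mice had the same reproductive experience with depleted nesting material and daily separation from the litter during the later postpartum weeks before weaning. No transgene, virus or drug is named for these mice, and the labels give no age at collection. The punches also took in neighbouring tissue, since thalamic or habenular neurons were found in every mouse and at least 10 nuclei of striatal projection neurons in 8 mice.

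Animal cells build cholesterol from acetyl-CoA by way of mevalonate, squalene and lanosterol. When sterols run low in the endoplasmic reticulum, SREBP-2 (the product of Srebf2) is carried to the Golgi, cut free and moved to the nucleus, where it turns on genes for synthesis and uptake; INSIG-1 holds it back when sterols are plentiful. Lipoprotein cholesterol from the blood hardly reaches the adult brain, which makes its own, with oligodendrocytes using it for myelin and astrocytes passing it to neurons on particles that carry ApoE.

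In GENCODE annotation of GRCm38 the 7 genes are protein-coding and lie on 5 chromosomes. Hmgcs1 (ENSMUSG00000093930), coding for HMG-CoA synthase, is at chr13:119690379-119708260 on the plus strand. Fdft1 (ENSMUSG00000021273), coding for squalene synthase, is at chr14:63145150-63179578 on the minus strand, and Sqle (ENSMUSG00000022351), coding for squalene epoxidase, is at chr15:59315077-59331192 on the plus strand. Cyp51 (ENSMUSG00000001467), the lanosterol demethylase, is at chr5:4081145-4104746 on the minus strand. Dhcr7 (ENSMUSG00000058454), which reduces 7-dehydrocholesterol to cholesterol, is at chr7:143823145-143848410 on the plus strand. Srebf2 (ENSMUSG00000022463) is at chr15:82147181-82205379 and Insig1 (ENSMUSG00000045294) at chr5:28071363-28078662, both on the plus strand. Another counted gene on the opposite strand overlaps Hmgcs1 (the antisense gene Gm48342), Fdft1 (Ctsb) and Cyp51 (Akap9), and whether the counting used the strand is not given in the sources used here.

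The 250 bases before the transcription start are shown for the 4 genes whose levels or pairings the results turn on, because SREBP-2 binds sterol regulatory elements near the start of its targets, next to sites for NF-Y and Sp1. The sequences are those of RefSeq on GRCm38.p6, read 5′ to 3′ on the strand of the gene, with matches in capitals. The starts are those of RefSeq and differ from GENCODE, so that the ends of the Cyp51, Srebf2 and Insig1 windows lie inside the gene as placed above, with the CCAAT match of Cyp51 and 3 of the GC boxes of Srebf2.
Hmgcs1, chr13:119690101-119690350, plus strand: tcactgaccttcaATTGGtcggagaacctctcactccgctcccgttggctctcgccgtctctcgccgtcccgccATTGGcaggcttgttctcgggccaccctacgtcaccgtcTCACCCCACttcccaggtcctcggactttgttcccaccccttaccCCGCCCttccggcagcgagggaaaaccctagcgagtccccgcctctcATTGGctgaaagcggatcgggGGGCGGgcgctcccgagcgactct
Cyp51, chr5:4104698-4104947, minus strand: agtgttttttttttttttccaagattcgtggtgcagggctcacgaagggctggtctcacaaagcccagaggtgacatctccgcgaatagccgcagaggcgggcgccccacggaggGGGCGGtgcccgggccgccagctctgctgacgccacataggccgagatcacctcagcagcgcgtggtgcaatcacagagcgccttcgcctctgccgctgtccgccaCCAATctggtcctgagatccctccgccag
Srebf2, chr15:82147019-82147268, plus strand: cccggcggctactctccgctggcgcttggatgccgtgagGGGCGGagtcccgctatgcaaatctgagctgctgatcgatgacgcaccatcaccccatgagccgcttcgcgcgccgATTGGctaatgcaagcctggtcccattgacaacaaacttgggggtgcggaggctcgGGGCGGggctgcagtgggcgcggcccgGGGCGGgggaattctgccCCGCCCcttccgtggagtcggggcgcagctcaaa
Insig1, chr5:28071162-28071411, plus strand: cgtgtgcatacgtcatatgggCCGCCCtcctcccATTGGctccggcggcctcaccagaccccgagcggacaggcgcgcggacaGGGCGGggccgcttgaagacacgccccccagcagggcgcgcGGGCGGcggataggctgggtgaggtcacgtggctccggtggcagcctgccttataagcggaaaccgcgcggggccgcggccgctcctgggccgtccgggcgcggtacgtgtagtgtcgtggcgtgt
The capitals mark TCACNCCAC (a sterol regulatory element), CCAAT (the NF-Y site) and GGGCGG (the Sp1 site, or GC box), each searched on both strands, and no match overlapped another. TCACNCCAC was found once, in Hmgcs1, with its first base 137 bases before the start, and in 1.05% of the 32851 promoters searched. The Hmgcs1 window also held 3 CCAAT matches and 2 GC boxes, against a CCAAT in 33.8% and a GC box in 32.7% of all promoters. Cyp51 had 1 CCAAT match 29 bases and 1 GC box 135 bases before the start. Srebf2 had 1 CCAAT match and 4 GC boxes, and Insig1 1 CCAAT match and 3 GC boxes. Promoters were found for 5 of the 7 genes; Dhcr7 had 3, and Sqle and Fdft1 were not matched. A match is only a run of letters, and binding was not measured. For the sterol regulatory element only this exact pattern was searched. A window without a match may therefore still hold a variant of the element.

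After filtering, 123913 nuclei remained, and 15 classes of neurons and glia were named from their markers, each made of whole clusters. The 52 sterol genes took no part in the clustering. Libraries held 40602582 to 96211264 UMIs (unique molecules counted), and pairs of libraries shared 6 to 47 barcodes, at most 0.461% of the smaller library. Levels are given as CPM: the UMIs of a gene summed over the nuclei of a class in a mouse, per 1000000 UMIs of that class and mouse. They are compared between classes and mice for 1 gene at a time, and a CPM is a share of the UMIs of the class, not an amount per cell. A class with the higher CPM of a gene could hold fewer of its UMIs per nucleus. Depth differed between classes, with a median of 3399 UMIs in an astrocyte nucleus, 2495 in an oligodendrocyte and 9903 in a hippocampal excitatory neuron. Classes were named from these markers, so their levels are no separate check of the names: the 9 oligodendrocyte markers summed to 14048 to 21547 CPM in oligodendrocytes, where 6 of the 8 astrocyte markers also passed 5 CPM, with a sum of 286 to 422 CPM. By their sum the 6 dentate granule markers hardly set these classes apart, with 3614 to 4309 CPM in oligodendrocytes and 4088 to 5414 CPM in dentate granule neurons. A sum is carried by the most abundant markers. The mean log2 fold over the list, used for naming, was 3.025 and 3.011 in the 2 dentate granule clusters. In the 3 oligodendrocyte clusters this list was no higher than the second-best list, at 1.834 to 2.155.

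The 7 genes were highest in the same 3 glial classes. Astrocytes and newly formed oligodendrocytes were among the first 3 of the 15 classes for all 7 genes, and oligodendrocytes for 6; for Cyp51 subiculum neurons came in between. At the other end were microglia, dentate granule neurons and subiculum neurons, 1 of which was last for each gene.

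Hmgcs1, which makes HMG-CoA at the entry to the mevalonate pathway, averaged 80.2 CPM ± 41.2 (SD, n = 15) in newly formed oligodendrocytes, 60.6 CPM ± 9.74 (n = 15) in astrocytes and 48.5 CPM ± 11.3 (n = 15) in oligodendrocytes. It was lowest in dentate granule neurons, at 10.0 CPM ± 1.56 (n = 15). The steps from astrocytes to oligodendrocytes and from oligodendrocytes to CA3 neurons, the next class at 32.6 CPM ± 6.41 (n = 15), were larger than either SD. Most steps were not, and 11 of the 14 between neighbouring classes lay within the larger SD. Fdft1, which makes squalene, also had a gap between these glia and the rest, with 78.7 CPM ± 12.9 (n = 15) in astrocytes, 62.1 CPM ± 20.4 (n = 15) in newly formed oligodendrocytes and 56.1 CPM ± 7.55 (n = 15) in oligodendrocytes. Its remaining 12 classes ran without a break from 25.1 CPM ± 4.24 (n = 15) in CA3 neurons to 13.6 CPM ± 5.02 (n = 15) in microglia. Sqle, whose product adds oxygen to squalene, fell off gradually. It went from 34.3 CPM ± 8.96 (n = 15) in astrocytes to 5.22 CPM ± 3.02 (n = 13) in subiculum neurons, and none of its 14 steps exceeded the larger SD.

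Cyp51 was the member with the highest place among neurons. It reached 42.996 CPM ± 12.7 (n = 13) in subiculum neurons, between astrocytes at 50.0 CPM ± 8.78 (n = 15) and oligodendrocytes at 38.5 CPM ± 6.16 (n = 15), and neither neighbour differed from it beyond the SD. The other members did not share this: in subiculum neurons Hmgcs1 averaged 12.1 CPM ± 4.74 (n = 13) and Insig1 3.08 CPM ± 2.16 (n = 13). Subiculum neurons were few, 546 nuclei in all, and 2 mice had under 10. Dhcr7, the last step to cholesterol, stood clear of all other classes only in astrocytes, at 24.8 CPM ± 6.85 (n = 15) against 16.2 CPM ± 2.66 (n = 15) in oligodendrocytes.

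Srebf2 had the smallest ratio of its highest to its lowest class mean among the 7 genes. Its levels ran from 137 CPM ± 16.3 (n = 15) in astrocytes and 135 CPM ± 10.6 (n = 15) in oligodendrocytes down to 40.1 CPM ± 7.87 (n = 15) in microglia, in 14 steps that were each within the larger SD. Insig1, the brake on SREBP-2, had 2 clear steps, from 33.3 CPM ± 5.38 (n = 15) in oligodendrocytes to 24.1 CPM ± 6.44 (n = 15) in newly formed oligodendrocytes and from there to 11.7 CPM ± 2.40 (n = 15) in GABAergic neurons. Across the means of the 15 classes the 21 pairs of members had Pearson r of 0.53 to 0.89 with a median of 0.78, a description over classes that share libraries and differ in depth.

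Astrocytes were then compared with hippocampal excitatory neurons within the same mice (43308 nuclei of dentate granule, CA1, CA2, CA3, subiculum and mossy classes together). Of this pool 31447 nuclei were dentate granule neurons, and a single excitatory class could lie nearer to astrocytes. CA3 neurons alone had Srebf2 at 83.9 to 129 CPM and Hmgcs1 at 21.6 to 45.1 CPM, ranges that overlapped those of astrocytes. All 7 genes were higher in CPM in astrocytes than in the pool, in 15 of 15 mice each, and passed the test (edgeR quasi-likelihood test with the mouse as a block, Benjamini-Hochberg adjusted over all genes tested). Of all 15322 genes tested, 41.2% were called higher and 42.3% lower. Counted per nucleus, Srebf2 and Cyp51 were not higher in astrocytes. Srebf2 had 4691 UMIs in 9434 astrocyte nuclei against 33278 UMIs in the 43308 excitatory nuclei. Hmgcs1 in astrocytes had a lowest value of 43.9, a median of 62.4 and a highest value of 73.9 CPM over the 15 mice, against 11.7, 16.2 and 22.3 CPM in excitatory neurons. The ranges did not overlap, and the log2 fold change was 1.69 (SE 0.08, edgeR adjusted p = 7.68e-15). The step was largest for Insig1, with a log2 fold change of 2.67 (SE 0.09, edgeR adjusted p = 1.77e-17), from a lowest, median and highest value of 3.70, 5.39 and 7.87 CPM in excitatory neurons to 28.1, 41.2 and 58.6 CPM in astrocytes. Srebf2 had the smallest, 0.81 on the log2 scale (SE 0.04, edgeR adjusted p = 6.16e-14), with 106, 137 and 164 CPM in astrocytes and 55.3, 66.5 and 80.3 CPM in excitatory neurons. Between them were Fdft1 at 1.96, Sqle at 1.95, Dhcr7 at 1.49 and Cyp51 at 1.35 on the log2 scale. Of the longer list, 19 of 20 genes of sterol synthesis were called higher and none lower. Idi1, an isomerase between mevalonate and squalene, was higher by 2.41 on the log2 scale. The smallest p-values on the list belonged to Soat1, which makes cholesteryl esters, at 3.01 on the log2 scale, and to the lipoprotein genes Clu at 4.89 and Apoe at 5.96. Over the 50 sterol genes measured, 37 were higher and 11 lower, with a median log2 fold change of 1.13 against -0.02 over all genes tested. The 8 astrocyte markers summed to between 664 and 1030 CPM in excitatory neurons and to between 11412 and 14117 CPM in astrocytes; the part of free RNA in the neuronal levels was not tested.

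In CPM, oligodendrocytes were likewise above the pooled excitatory neurons for all 7 genes in 15 of 15 mice, and all 7 were called (edgeR), where 45.2% of 15215 genes were called higher and 43% lower. Counted per nucleus, only Insig1 was higher in oligodendrocytes. Hmgcs1 had 3987 UMIs in 29871 oligodendrocyte nuclei against 8025 UMIs in 43308 excitatory nuclei. Insig1 again had the largest log2 fold change, 2.48 (SE 0.06), and Srebf2 the smallest, 0.91 (SE 0.04). Hmgcs1 was higher by 1.46, Fdft1 by 1.58, Sqle by 1.20, Cyp51 by 1.08 and Dhcr7 by 1.01 on the log2 scale. The ranges over mice did not overlap for Hmgcs1, at 31.9 to 74.2 CPM in oligodendrocytes against 11.7 to 22.3 CPM in the pool. In CA3 neurons alone Hmgcs1 reached 45.1 CPM, and Cyp51 averaged 42.996 CPM in subiculum neurons against 38.5 CPM in oligodendrocytes. Of the 20 genes of sterol synthesis 19 were called higher and 1 lower. Genes of sterol handling included Cyp27a1, a sterol 27-hydroxylase, at 74.7 CPM ± 13.4 against 0.400 CPM ± 0.171 (n = 15), and the lysosomal lipase Lipa and lipoprotein Apod, higher by 2.90 and 6.31 on the log2 scale.

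Between the 2 glial classes, 6 of the 7 genes were higher in astrocytes than in oligodendrocytes (edgeR), against 37.2% of 13331 genes called higher and 41.5% lower. Sqle differed most, at a log2 fold change of 0.81 (SE 0.07, edgeR adjusted p = 1.28e-10). Its lowest, median and highest values were 23.6, 30.99 and 52.5 CPM in astrocytes and 12.8, 18.3 and 28.0 CPM in oligodendrocytes; the ranges overlapped, yet every mouse had more in its astrocytes. Dhcr7 was higher by 0.54, Fdft1 by 0.44, Cyp51 by 0.33, Hmgcs1 by 0.28 and Insig1 by 0.26, each in 13 to 15 of the 15 mice. Srebf2 was not called, with a log2 fold change of -0.03 (SE 0.05, edgeR adjusted p = 0.515) and 7 of 15 mice higher in astrocytes. Of the 9 genes of uptake and intracellular transport, 3 were called higher and 6 lower in astrocytes, with a median log2 fold change of -0.95. Among the receptors, Lrp1 was higher in astrocytes by 4.02 on the log2 scale and Vldlr lower, at -3.06.

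Within the oligodendrocyte lineage the 7 genes did not move as one from precursors (OPCs) to newly formed and mature cells. In OPCs 6 of the 7 were lower than in oligodendrocytes (edgeR), against 39.5% of 12162 genes called lower and 33.9% higher. Insig1 differed most, by -1.73 on the log2 scale (SE 0.11, edgeR adjusted p = 1.86e-13), with a lowest, median and highest value of 3.24, 9.28 and 19.2 CPM in OPCs against 25.5, 31.6 and 47.8 CPM in oligodendrocytes. The ranges were apart. Fdft1 was lower by -1.26, Hmgcs1 by -1.21, Srebf2 by -0.9995, Cyp51 by -0.68 and Dhcr7 by -0.45 on the log2 scale. Sqle was not called, at 18.0 CPM ± 6.03 in OPCs and 18.5 CPM ± 3.72 in oligodendrocytes (n = 15; log2 fold change -0.03, SE 0.10, edgeR adjusted p = 0.817). All 7 members also passed the filter on low counts within OPCs. The other genes of sterol synthesis could pass it through oligodendrocytes alone, so no count of them is given.

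Newly formed oligodendrocytes, a class of 640 nuclei with 20 to 86 in a mouse, were above oligodendrocytes for Hmgcs1, Sqle and Cyp51 and below them for Insig1 (edgeR); 19.8% of 11247 genes were called higher and 22.1% lower. Hmgcs1 had a lowest, median and highest value of 42.8, 63.7 and 173 CPM in newly formed oligodendrocytes and a log2 fold change of 0.75 (SE 0.14, edgeR adjusted p = 3.59e-05), higher in 13 of 15 mice. Its spread was wide, and it rested on 368 UMIs in all. Cyp51 ran from 21.4 to 177 CPM with a median of 61.3 CPM, a log2 fold change of 0.71 (SE 0.16, edgeR adjusted p = 0.000622), and Sqle was higher by 0.65 (SE 0.18, edgeR adjusted p = 0.00446). Insig1 was lower by -0.40 (SE 0.13, edgeR adjusted p = 0.0137), in 13 of 15 mice. Within newly formed oligodendrocytes alone 4 members, Hmgcs1, Fdft1, Cyp51 and Srebf2, passed the filter on low counts. Insig1, Sqle and Dhcr7 did not, and Insig1 rested on 103 UMIs there. Fdft1, Dhcr7 and Srebf2 were not called, at 0.19, -0.02 and -0.21 on the log2 scale. Srebf2 was called lower without scaling factors, without a filter, thinned and at Leiden resolution 0.5, at -0.26 to -0.64. With nuclei thinned to 1000 UMIs, Cyp51 (0.48, edgeR adjusted p = 0.202) and Insig1 (-0.86, edgeR adjusted p = 0.0888) were no longer called. In sterol synthesis 13 of 20 genes were called higher and none lower. The sterol regulators could pass the filter through mature oligodendrocytes alone, so no count of them is given.

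Microglia were below astrocytes in 15 of 15 mice for each gene. Hmgcs1, Fdft1, Cyp51 and Srebf2, the 4 members that also passed the filter on low counts within microglia, were called lower (edgeR), as were Sqle, Dhcr7 and Insig1, which passed only through their level in astrocytes, against 38.6% of 10444 genes called lower and 39.9% higher. Sqle was lower by -2.80 and Fdft1 by -2.78 on the log2 scale, Insig1 by -2.75, Dhcr7 by -2.56, Cyp51 by -2.20, Srebf2 by -2.02 and Hmgcs1 by -1.68. Sqle and Dhcr7 were each at 0 in at least 1 mouse, and rested on 64 and 54 UMIs over the 15 mice. The other genes of sterol synthesis could pass that filter through astrocytes alone, so no count of them is given. Ebp, a sterol isomerase of that list that did not pass, averaged 9.53 CPM ± 5.90 in microglia and 3.70 CPM ± 1.99 in astrocytes (n = 15). All 9 genes of uptake and intracellular transport passed, of which 6 were called higher and 3 lower. Mylip, which codes for a ubiquitin ligase, was higher in microglia by 3.97 on the log2 scale.

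Neurons differed among themselves. GABAergic neurons were above excitatory neurons for 5 genes, Insig1 (log2 fold change 0.99), Hmgcs1 (0.84), Sqle (0.80), Cyp51 (0.74) and Dhcr7 (0.41), and below them for Srebf2, in 15 of 15 mice, at -0.31 (SE 0.04, edgeR adjusted p = 8.30e-07). Of all 15026 genes 38.8% were called higher and 35.4% lower. Most of the 43308 pooled excitatory nuclei, 31447, were dentate granule neurons. CA3 neurons alone were at 32.6 CPM ± 6.41 for Hmgcs1, 14.6 CPM ± 3.32 for Sqle and 12.2 CPM ± 2.04 for Dhcr7 (n = 15). GABAergic neurons were at 30.8, 13.7 and 10.6 CPM for these genes. For Cyp51 and Insig1 CA3 neurons were lower, at 20.4 and 6.69 CPM against 29.6 and 11.7 CPM, but subiculum neurons had Cyp51 at 42.996 CPM. Fdft1 was not called, with 18.0 CPM ± 4.57 in GABAergic and 17.3 CPM ± 1.96 in excitatory neurons (n = 15). With every nucleus thinned to 1000 UMIs, 2 of the 6 calls were made. Srebf2 lost its call there (-0.19, edgeR adjusted p = 0.110), and the other genes whose calls were lost had no thinned fit. Dentate granule neurons were below CA1 neurons for Hmgcs1 (-1.11), Srebf2 (-0.54), Sqle (-0.53), Dhcr7 (-0.43) and Cyp51 (-0.17) on the log2 scale and above them for Insig1 (0.70, SE 0.09, edgeR adjusted p = 1.87e-07), where 33.5% of 14242 genes were called lower and 40.9% higher. Hmgcs1 had a lowest, median and highest value of 8.42, 9.59 and 12.8 CPM in dentate granule neurons and 15.9, 20.4 and 26.6 CPM in CA1 neurons, with no overlap. Insig1 was higher in the dentate granule neurons of all 15 mice, at 5.74 CPM ± 0.989 against 3.58 CPM ± 1.33 (n = 15), and rested on 276 UMIs in CA1 neurons. Cyp51 was higher in the dentate granule neurons of 7 of 15 mice, and its call was lost without the mouse as a block (edgeR adjusted p = 0.0642). After thinning 2 of the 6 calls were made, and Cyp51 turned to 0.02. The other genes whose calls were lost had no thinned fit. Outside the members, Cyp7b1, a 7α-hydroxylase of oxysterols, was at 509 CPM ± 49.3 in dentate granule and 83.3 CPM ± 12.0 in CA1 neurons (n = 15), higher by 2.57.

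The glial classes were not uniform. Oligodendrocytes fell into 3 clusters, and the share of a mouse's oligodendrocytes in cluster 14 ran from 1.07% to 77.7% and in cluster 16 from 1.53% to 74.0%, whereas cluster 17 held 19.8% to 30.2% in every mouse; libraries were clustered without alignment. Cluster 17 was above cluster 14 for 6 of the 7 genes, in 13 to 15 of 15 mice. Hmgcs1 averaged 58.3 CPM ± 13.8 in cluster 17 and 40.1 CPM ± 6.75 in cluster 14 (n = 15), a mean difference of 18.2 CPM ± 12.2. Insig1 was the exception, higher in cluster 14 in 12 of 15 mice, at 37.1 CPM ± 8.76 against 29.5 CPM ± 6.69 (n = 15). Astrocytes fell into 2 clusters, and the larger, cluster 11, was above cluster 23 in 14 of 15 mice for Hmgcs1, Sqle and Cyp51 and in 13 for Fdft1 and Srebf2. Dhcr7 and Insig1 were not ordered in this way, with cluster 11 higher in 7 and 9 of the 15 mice. These cluster differences are descriptions of the same nuclei and were not tested.

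The design asks whether reproductive experience, with or without postpartum stress, was followed by other levels of these genes in any class. No member was called in any class for any contrast (edgeR quasi-likelihood test, adjusted over all genes of the class). In 14 classes 77 pairs of a member and a class could be tested; all 7 members passed the filter on low counts in 8 classes, 5 in CA2 neurons and mossy cells, 4 in microglia and newly formed oligodendrocytes, 3 in subiculum neurons and none in Cajal-Retzius neurons. For control RE minus NP 0 of the 77 were called, against 0.000665% of 150385 gene and class pairs, and 1 had an unadjusted p under 0.05, against 3.68% of all pairs. For stress RE minus control RE 0 of 77 were called against 0.00133%, with 6 at an unadjusted p under 0.05 against 2.4%. For stress RE minus NP 0 were called against 0% of all pairs, with 6 against 4.11%. DESeq2 called 0 in each contrast as well, with 0, 4 and 4 at an unadjusted p under 0.05. The contrasts share mice: each group stands in 2 of the 3. Batch 1 of the labels held 2 NP and 1 stress RE mice and no control RE mice.

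In oligodendrocytes all 7 genes had positive differences for stress RE minus control RE, of 0.14 to 0.50 on the log2 scale, 3 of them at an unadjusted p under 0.05, where 3.34% of 13814 genes tested in oligodendrocytes were. Hmgcs1 was at 31.9, 35.5, 44.6 and 52.9 CPM in the 4 control RE mice and at 43.1, 55.9, 57.2, 62.7 and 74.2 CPM in the 5 stress RE mice. The lowest stress RE mouse was below the 2 highest control RE mice, so the groups overlapped. The means were 58.6 CPM ± 11.3 (n = 5) and 41.2 CPM ± 9.46 (n = 4), a log2 fold change of 0.50 (SE 0.15, edgeR unadjusted p = 0.00517, adjusted p = 1.00). Within batch 2 the difference was 14.6 CPM and within batch 3 21.5 CPM. Srebf2 was at 121, 123, 124 and 135 CPM in control RE and at 139, 140, 146, 147 and 157 CPM in stress RE, so that every stress RE mouse was above every control RE mouse. Its log2 fold change was 0.21 (SE 0.07, edgeR unadjusted p = 0.00632, adjusted p = 1.00), with 18.5 CPM within batch 2 and 20.9 CPM within batch 3, and was 0.11 with nuclei thinned to 1000 UMIs (edgeR unadjusted p = 0.195, adjusted p = 0.999). Fdft1 was the remaining gene, at 62.6 CPM ± 7.31 (n = 5) against 52.1 CPM ± 3.72 (n = 4), also with the groups apart (log2 fold change 0.26, edgeR unadjusted p = 0.0283, adjusted p = 1.00). Groups were apart in 3 of the 77 pairs of a member and a class for this contrast and in 1 of 77 for each other contrast. The share of all genes with groups apart was not counted, so this is no result about the members. The share of oligodendrocytes in clusters 14 and 16 varied widely within every group, and its difference between groups was not tested. Cluster 14, where Hmgcs1 was lowest at 40.1 CPM against 48.9 CPM in cluster 16 and 58.3 CPM in cluster 17, held a median of 66.1% of the oligodendrocytes of NP mice, 44.9% for control RE and 22.4% for stress RE. The ranges were 7.32% to 77.7%, 7.47% to 75.3% and 1.07% to 77.5%. Cluster 16 held medians of 10.3%, 33.4% and 47.4%, and the part of this in the group differences was not tested beyond the values within clusters. In the sterol synthesis list 18 of 20 genes had positive differences and none was called. Their median was 0.26 on the log2 scale, against -0.001 over all 13814 genes tested in oligodendrocytes. Members were correlated over mice in oligodendrocytes and astrocytes, so signs shared by several genes are not separate observations. Msmo1, a sterol methyl oxidase, was at 0.32 (edgeR unadjusted p = 0.0199, adjusted p = 1.00).

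Set beside this, control RE minus NP was negative for all 7 genes in oligodendrocytes, between -0.26 and -0.02 on the log2 scale, with none at an unadjusted p under 0.05, against 1.97% of all genes tested. Stress RE minus NP was positive for 6, against a background of 4.7% of genes at an unadjusted p under 0.05, and Hmgcs1 was at 0.38 (SE 0.14, edgeR unadjusted p = 0.0130, adjusted p = 0.997), Fdft1 at 0.24 (SE 0.10, edgeR unadjusted p = 0.0251, adjusted p = 0.997) and Srebf2 at 0.15 (SE 0.06, edgeR unadjusted p = 0.0208, adjusted p = 0.997). The NP mice had a lowest, median and highest Hmgcs1 of 39.7, 43.4 and 58.2 CPM, overlapping both other groups. Within the clusters, stress RE minus control RE was 0.27, 0.53 and 0.43 on the log2 scale for Hmgcs1 in clusters 14, 16 and 17 and 0.27, 0.07 and 0.22 for Srebf2, a split added after the data had been seen. The 9 oligodendrocyte markers summed to a median of 16767 CPM in NP mice, 16037 CPM for control RE and 18468 CPM for stress RE, with overlapping ranges of 14048 to 19658, 14168 to 17179 and 14138 to 21547 CPM and no marker at 0. The 4 excitatory neuron markers summed to 105 to 181, 142 to 261 and 125 to 198 CPM in the oligodendrocytes of the same groups, and the 6 dentate granule markers to medians of 3930, 3901 and 4105 CPM. The 7 markers of newly formed oligodendrocytes, a class with more Hmgcs1, summed there to a median of 1030 CPM in NP mice, 945 CPM for control RE and 1047 CPM for stress RE (ranges 876 to 1137, 790 to 989 and 863 to 1095 CPM), and the 6 OPC markers to 162, 118 and 95.6 CPM. The part of any of these in the levels of the 7 genes was not tested.

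In astrocytes stress RE minus control RE was negative for 6 of the 7 genes, between -0.30 and 0.01 on the log2 scale, with none at an unadjusted p under 0.05 where 2.84% of genes were, and 4 of the 20 sterol synthesis genes were positive. Fdft1 was at 72.3 CPM ± 12.8 (n = 5) in stress RE and 86.1 CPM ± 18.4 (n = 4) in control RE. Control RE minus NP was positive for all 7, between 0.09 and 0.19, and stress RE minus NP for 6 of the 7, as many as in oligodendrocytes, between -0.13 and 0.16. At an unadjusted p under 0.05 were 2.19% of genes for control RE minus NP and 3.96% for stress RE minus NP in astrocytes. Taking the difference of oligodendrocytes and astrocytes in each mouse, on the scale of log2(CPM + 1), none of the 21 tests of a gene and a contrast passed (exact permutation test, two-sided, Benjamini-Hochberg over the 21, chosen after the data had been seen). Fdft1 came nearest, with a difference of 0.50 between stress RE and control RE (exact permutation p = 0.0159, the smallest that 5 against 4 mice can give, adjusted p = 0.167). For stress RE minus NP it was 0.37 (exact permutation p = 0.0130, adjusted p = 0.167), and Hmgcs1 was at 0.48 for stress RE minus control RE (exact permutation p = 0.0476, adjusted p = 0.320). These tests were run for the members alone, so no share over all genes stands beside them.

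**Figure D1:**
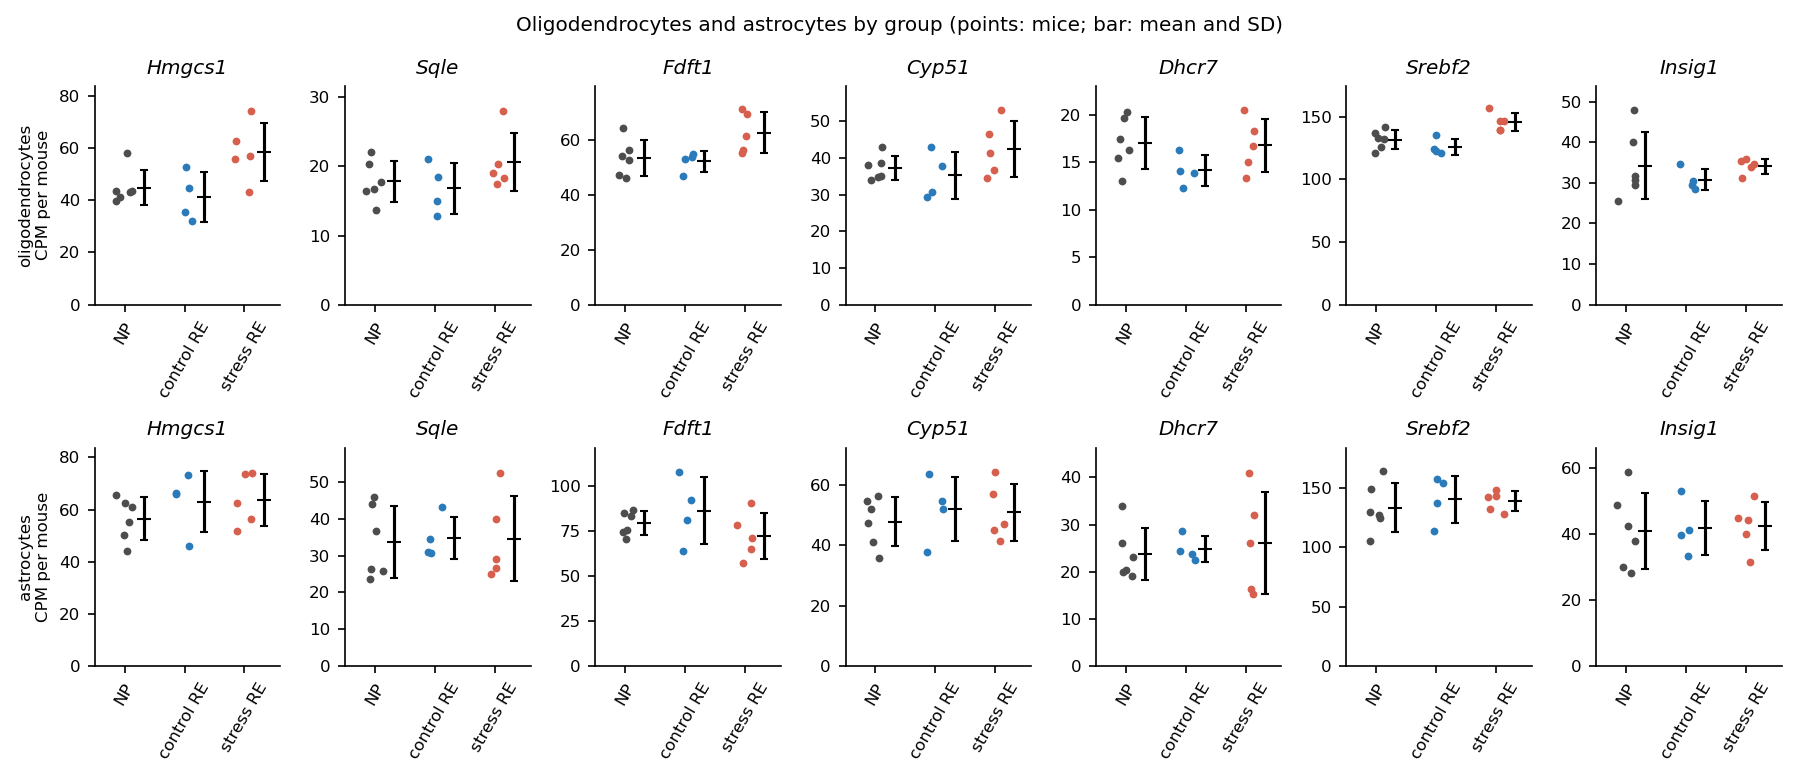
Level of each of the 7 genes in oligodendrocytes and astrocytes by group, in CPM. Points are mice, and the line and bar are the mean and SD of 6 NP, 4 control RE and 5 stress RE mice; in oligodendrocytes the stress RE points for Srebf2 start at 139 CPM and the control RE points end at 135 CPM.

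Outside oligodendrocytes 7 tests of a member were under 0.05 unadjusted (edgeR), in 6 classes: 3 between stress RE and control RE, 3 between stress RE and NP and 1 between control RE and NP. Insig1 in OPCs was at 3.24, 8.07, 8.40 and 8.81 CPM in control RE and at 9.71, 10.0, 10.3, 14.5 and 19.2 CPM in stress RE. The groups were apart, with 1 low control RE mouse, and the log2 fold change was 0.78 (SE 0.33, edgeR unadjusted p = 0.0271, adjusted p = 0.999). Hmgcs1 in newly formed oligodendrocytes averaged 103 CPM ± 49.0 (n = 5) in stress RE and 58.8 CPM ± 14.4 (n = 4) in control RE, with overlap (log2 fold change 0.84, SE 0.38, edgeR unadjusted p = 0.0413, adjusted p = 1.00). Cyp51 in subiculum neurons averaged 35.7 CPM ± 6.61 in 3 stress RE mice and 54.0 CPM ± 10.3 in 4 control RE mice, also with overlap (log2 fold change -0.57, SE 0.27, edgeR unadjusted p = 0.0464, adjusted p = 1.00).

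Between stress RE and NP, Dhcr7 in dentate granule neurons was at 4.29, 4.50, 5.23, 5.47 and 5.49 CPM in stress RE and had a lowest, median and highest value of 5.74, 5.99 and 8.53 CPM in NP. All stress RE mice were below all NP mice, at a log2 fold change of -0.38 (SE 0.12, edgeR unadjusted p = 0.00804, adjusted p = 1.00). The 2 highest NP mice, at 8.29 and 8.53 CPM, were both of batch 1; the difference was -4.11 CPM within batch 1, -0.513 CPM within batch 2 and -0.957 CPM within batch 3. Thinned to 1000 UMIs, it turned to 0.07. Insig1 in GABAergic neurons averaged 10.3 CPM ± 1.75 (n = 5) in stress RE and 13.8 CPM ± 1.99 (n = 6) in NP (log2 fold change -0.36, SE 0.16, edgeR unadjusted p = 0.0325, adjusted p = 0.987), and Srebf2 in mossy cells 78.3 CPM ± 9.19 (n = 5) and 107 CPM ± 23.6 (n = 4) (log2 fold change -0.41, SE 0.19, edgeR unadjusted p = 0.0417, adjusted p = 0.997), both with overlap.

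For control RE minus NP, Srebf2 in mossy cells was at 62.9, 66.3, 67.9 and 108 CPM in control RE and at 85.3, 96.0, 105 and 140 CPM in the 4 NP mice with enough nuclei. The groups overlapped through 1 control RE mouse, and the log2 fold change was -0.42 (SE 0.20, edgeR unadjusted p = 0.0459, adjusted p = 0.997). Insig1 in GABAergic neurons was at 8.41, 10.8, 10.8 and 10.9 CPM in control RE and had a lowest, median and highest value of 11.0, 13.4 and 16.5 CPM in NP, apart by less than the spread of either group (log2 fold change -0.36, SE 0.17, edgeR unadjusted p = 0.0506, adjusted p = 0.964). Cyp51 in subiculum neurons was at 39.8, 53.5, 59.4 and 63.5 CPM in control RE and from 21.4 to 58.8 CPM in NP (log2 fold change 0.49, SE 0.24, edgeR unadjusted p = 0.0616, adjusted p = 0.995), and its difference was 29.1 CPM within batch 2 and -2.63 CPM within batch 3.

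The longer list had no call either. Over its 519 pairs of a gene and a class, 16 were at an unadjusted p under 0.05 for control RE minus NP (edgeR), 14 of them lower, where 3.68% of all gene and class pairs were. There were 22 for stress RE minus control RE, 19 of them higher, against 2.4% of all pairs, and for stress RE minus NP 31, 21 of them lower, against 4.11%. The list of uptake and intracellular transport had 9 of its 108 pairs under 0.05 for stress RE minus NP, 8 of them lower, and 2 for each of the other contrasts, and its smallest adjusted p in any contrast was 0.450. Lrp8, a receptor for ApoE and reelin, was at -0.64 in CA2 neurons for control RE minus NP and at 0.66 for stress RE minus control RE on the log2 scale, a pair that shares the control RE mice. Apod was at 1.12 in newly formed oligodendrocytes for stress RE minus control RE, and at 1.17 in OPCs and 0.93 in microglia for stress RE minus NP.

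Of 42 pairs of members in the glia, 5 were correlated over mice past the threshold by Pearson. Over the 15 mice, log2(CPM + 1) was compared for the 21 pairs of members in astrocytes, oligodendrocytes and dentate granule neurons (63 correlations, permutation test with 100000 resamples, Benjamini-Hochberg over the 63). In both glial classes all 21 pairs had a positive Pearson r, with medians of 0.49 in astrocytes and 0.52 in oligodendrocytes, against 19 of 21 and 0.37 in dentate granule neurons. Over all pairs of the genes with at least 5 CPM in a class, the median r was 0.03 in astrocytes, 0.02 in oligodendrocytes and 0.08 in dentate granule neurons, and 53.3%, 51.6% and 56.0% of pairs were positive. By Pearson 5 pairs passed and by Spearman 4, and 22 had an unadjusted p under 0.05. The lowest r that passed was 0.71, which 1.103% of all gene pairs reached in astrocytes and 2.61% in oligodendrocytes. The groups were pooled in these tests. With the mean of each group removed, an alternative chosen after the data had been seen, the medians were 0.48 in astrocytes and 0.45 in oligodendrocytes, and the 5 pairs that passed had r of 0.71 to 0.89. Hmgcs1 and Cyp51 in oligodendrocytes were the tightest, with r = 0.91 (permutation p = 1e-05, the smallest it can give, adjusted p = 0.00063) and rho = 0.90 (permutation p = 2e-05, adjusted p = 0.00126). Without the 2 mice farthest from the median of Hmgcs1 r was 0.87, and within batches 2 and 3, of 6 mice each, it was 0.96 and 0.97. Sqle and Cyp51 in oligodendrocytes had r = 0.86 and rho = 0.80 (permutation p = 6e-05 and 0.00049, adjusted p = 0.00189 and 0.0103), with 0.68 without 2 mice and 0.78 and 0.87 within batches. Hmgcs1 and Sqle had r = 0.82 and rho = 0.84 (permutation p = 0.00017 and 0.00024, adjusted p = 0.00357 and 0.00756), with 0.71 without 2 mice and 0.81 and 0.85 within batches.

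In astrocytes Hmgcs1 and Cyp51 passed by Pearson, at r = 0.79 (permutation p = 0.00056, adjusted p = 0.00882), and missed by Spearman, at rho = 0.70 (permutation p = 0.00528, adjusted p = 0.0554). The value was 0.62 without 2 mice and 0.93 and 0.86 within batches. Srebf2 and Insig1, the factor and its brake, had r = 0.71 and rho = 0.75 in astrocytes (permutation p = 0.00293 and 0.00207, adjusted p = 0.0369 and 0.0326), with 0.74 without 2 mice and 0.40 and 0.93 within batches. The same pair had r = 0.20 in oligodendrocytes (permutation p = 0.479). Batch 1, with 3 mice, is too small for a value. Members of a class share its libraries and depth. In oligodendrocytes they also share the mix of clusters, with 1.07% to 77.7% of a mouse's oligodendrocytes in cluster 14. Hmgcs1, Sqle and Cyp51 were higher in cluster 16 than in cluster 14 in 11, 10 and 12 of 15 mice. The part of libraries, depth and cluster mix in the correlations was not tested.

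**Figure D2:**
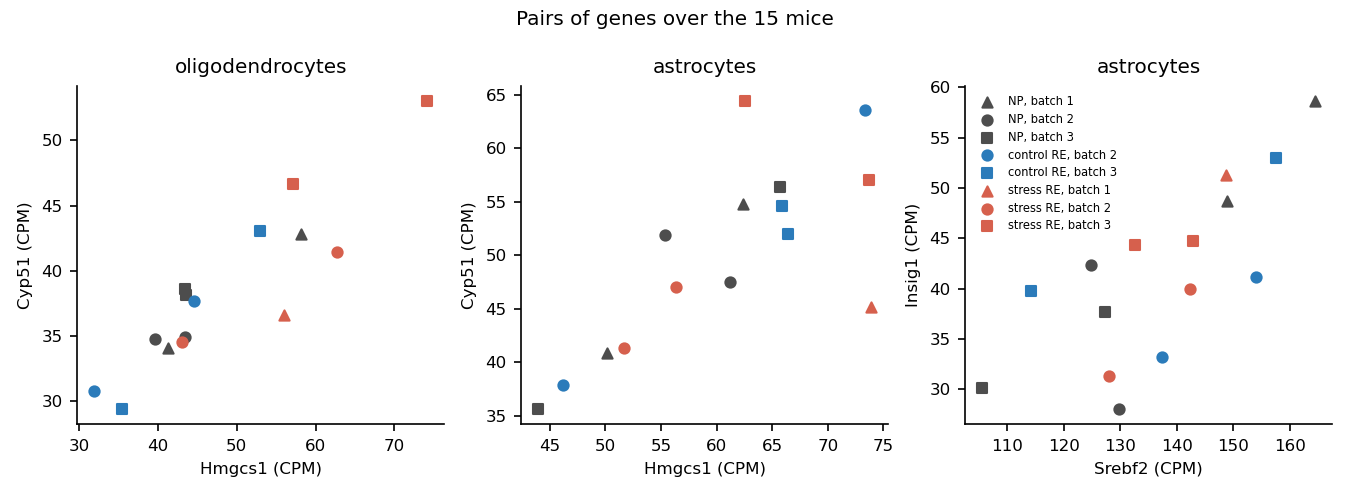
Levels of 3 of the 5 pairs of members that passed by Pearson, in CPM on both axes. Each point is 1 of the 15 mice, with the colour for the group and the shape for the batch; the points of Hmgcs1 and Cyp51 in oligodendrocytes lie closest to a line, with r = 0.91 for log2(CPM + 1).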

How the data were processed

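snRNA-seq counts of dHF nuclei were used from 6 NP, 5 stress RE and 4 control RE mice, with the group and batch of each taken from the labels. For each mouse the authors deposited whole-number UMI counts per gene and called barcode, not normalized, made with Cell Ranger 7.1.0 per the submitters' processing notes (the file headers name an earlier release) on mm10 (GRCm38). The study's later correction for free RNA is not in these whole-number counts, and none was made here. Libraries held 5789 to 12738 barcodes and 40602582 to 96211264 UMIs.

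A nucleus was kept with at least 200 genes and at most 5% of its UMIs mitochondrial, after which barcodes were removed that had the highest Scrublet scores, at 0.8% of a library per 1000 barcodes. Of 2000 variable genes, without the 52 sterol genes, 30 principal components, 15 neighbours and Leiden resolution 1 gave 36 clusters with at least 50 nuclei (scanpy 1.11.5, igraph 0.11.9). A cluster was named with at least 4 markers at 5 CPM and 2-fold the median of clusters, a mean log2 fold of 2 over the list and a lead of 0.25 over the next list; 29 were named, and 9068 nuclei were not. The naming thresholds were set with the clusters in view.

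Counts were summed per mouse and class, with at least 10 nuclei, and tested with edgeR 4.0.16 (quasi-likelihood, filterByExpr, TMM) in R 4.3.3, adjusted over all genes tested at 0.05. Class comparisons had the mouse as a block, since both classes come from the same animal; group contrasts were fitted over all 3 groups of at least 3 mice without a batch term. Alternatives were the fit without the block, a batch term, batches 2 and 3 only, DESeq2 1.42.0, other scaling, no filter, at least 30 nuclei, nuclei thinned to 1000 UMIs, Leiden resolution 0.5 and leaving out each mouse. On simulated data for control RE minus NP in astrocytes (12878 genes, 200 of them changed), 60% of log2 changes of 1 and 94% of log2 changes of 2 were found. There 7 unchanged genes were called as well. All differences of members between groups were smaller than 1 on the log2 scale, and such changes were not simulated.

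The members and lists were chosen with earlier results of these data known. Named genes were the members, Idi1 and a few other preset sterol genes that are not reported here, up to 3 sterol genes per comparison with the smallest p, the 3 member and class pairs with the smallest p per contrast, and the 5 genes most like the members over classes and over mice; others were named after their values were seen. Figures were drawn with matplotlib 3.10.9, and tables handled with pandas 2.3.3 and scipy 1.17.1 under Python 3.11.15.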

Additional observations from a re-analysis of the deposited data

Results flagged for a closer look

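In 56 groups of 4 to 6 mice checked for a mouse far from the others, 6 were flagged, where chance flags about 1 in 20. In control RE these were Insig1 in GABAergic neurons of mouse 88, at 8.41 CPM with the nearest mouse at 10.8 CPM, Insig1 in OPCs of mouse 72, at 3.24 CPM with the nearest at 8.07 CPM, Dhcr7 in dentate granule neurons of mouse 87, at 5.06 CPM with the nearest at 5.68 CPM, and Srebf2 in mossy cells of mouse 88, at 108 CPM with the nearest at 67.9 CPM. In oligodendrocytes, NP mouse 27 had Hmgcs1 at 58.2 CPM with the nearest NP mouse at 43.5 CPM, and stress RE mouse 75 had Sqle at 28.0 CPM with the nearest stress RE mouse at 20.3 CPM.

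The difference between groups was itself different in oligodendrocytes and astrocytes in 3 of 21 exact permutation tests at an unadjusted p under 0.05, and in none after Benjamini-Hochberg adjustment. For stress RE minus control RE it was 0.48 for Hmgcs1 and 0.50 for Fdft1, and for stress RE minus NP it was 0.37 for Fdft1, on the scale of log2(CPM + 1) and higher in oligodendrocytes. The mean of oligodendrocytes minus astrocytes for Fdft1 was -0.19 ± 0.12 (SD, n = 5) in stress RE, -0.69 ± 0.22 (SD, n = 4) in control RE and -0.56 ± 0.15 (SD, n = 6) in NP.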

How the results depend on the processing

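The counts of members called between classes stayed within 1.5 times under the alternatives, except that thinning to 1000 UMIs gave 2 in place of 6 for GABAergic against excitatory neurons and 2 in place of 6 for dentate granule against CA1 neurons. In the thinned fits Srebf2 lost its call in the former and Cyp51 in the latter. The other calls lost in these comparisons had no thinned fit. No member was called between groups under any alternative. Counts at an unadjusted p under 0.05 moved more. For control RE minus NP (1) they were 2 with a batch term, 0 with DESeq2, 2 without a filter, 0 with at least 30 nuclei, 0 thinned and 0 in batches 2 and 3, and 0 to 5 leaving out a mouse, with 5 without control RE mouse 88 and 3 without mouse 66 or 72. For stress RE minus control RE (6) they were 1 thinned and 4 to 10 leaving out a mouse, with 10 without control RE mouse 66. For stress RE minus NP (6) they were 0 thinned and 4 to 8 leaving out a mouse.

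The mouse pairs the classes. Without the replicate block 7, 7, 6, 6, 4, 7, 6 and 5 members were called in the 8 comparisons, and the call lost was Cyp51 in dentate granule against CA1 neurons, at -0.16 (edgeR adjusted p = 0.0642).

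Log2 fold changes turned sign for Srebf2, astrocytes minus oligodendrocytes, at 0.0231 without scaling factors and -0.0444 to 0.00913 leaving out a mouse; for Sqle, OPCs minus oligodendrocytes, at 0.219 thinned, 0.0109 at Leiden resolution 0.5 and -0.0755 to 0.0155 leaving out a mouse; for Dhcr7, newly formed minus mature oligodendrocytes, at 0.0299 at Leiden resolution 0.5 and -0.13 to 0.10 leaving out a mouse; and for Fdft1, GABAergic minus excitatory neurons, at 0.0380 without scaling factors and -0.10 to 0.00643 leaving out a mouse. None of these was called. Cyp51, dentate granule minus CA1 neurons, turned to 0.0156 thinned, and Dhcr7 in dentate granule neurons, stress RE minus NP, to 0.0683 thinned. The cause was not tested. Srebf2 in newly formed oligodendrocytes was called lower at -0.26 without scaling factors, -0.36 without a filter, -0.64 thinned and -0.27 at Leiden resolution 0.5. In the same comparison thinning lost the calls of Cyp51, at 0.48, and Insig1, at -0.86. Few counts lay behind some values: Dhcr7 rested on 66 UMIs in newly formed oligodendrocytes and 54 in microglia, and thinning leaves out nuclei with under 1000 UMIs. Group contrasts had 4 to 6 mice in a group, and 3 stress RE mice in subiculum neurons.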

Other observations

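Genes outside the sterol lists were ranked by the Pearson r of their mean log2 level over the 15 classes with the mean of the 7 standardized members, among 15720 genes with at least 5 CPM in a class. The first 5 were 4932438H23Rik (r = 0.93), Utp14b (0.92), Gm48342 (0.92), Slc6a9 (0.91) and Slc35e4 (0.91). Slc6a9, the glycine transporter GlyT1, averaged 64.1 CPM in astrocytes, 72.5 CPM in oligodendrocytes and 3.73 CPM in dentate granule neurons. Utp14b was at 160 CPM in astrocytes, 102 CPM in newly formed oligodendrocytes and 7.28 CPM in microglia. Gm48342 overlaps Hmgcs1 on the opposite strand and was highest in newly formed oligodendrocytes, at 7.14 CPM. Classes share libraries and differ in depth, so these are descriptions without a test.

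Over the 15 mice within astrocytes, among 11771 genes, the first 5 by r with the members' mean were Pcyt2 (r = 0.81), an enzyme of phosphatidylethanolamine synthesis, Rdh5 (0.78), a retinol dehydrogenase, Sdf2 (0.77), Elovl6 (0.77), a fatty acid elongase, and Aacs (0.76), acetoacetyl-CoA synthetase. They were picked as the highest of all genes compared and carry no p.

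Of the genes overlapping members on the opposite strand, Ctsb, opposite Fdft1, was highest in microglia at 202 CPM, where Fdft1 was lowest of the 15 classes, and Akap9, opposite Cyp51, was highest in striatal projection neurons at 366 CPM, where Cyp51 averaged 17.1 CPM ± 4.23 (SD, n = 8).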
